A study of Macaca fascicularis with 24 samples.

Results

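The messenger RNAs of 9 matricellular proteins were compared between old and young cynomolgus macaques (Macaca fascicularis) in RNA of the thoracic aorta: THBS1, THBS2, SPARC, SPARCL1, TNC, POSTN, CCN1, CCN2 and FN1. Every probe set (the group of short probes that reads 1 transcript) whose annotated symbol was one of these genes was taken, with the older symbols CYR61 and CTGF read as CCN1 and CCN2. This gave 22 of the 22277 probe sets on a human expression array, and 9 of the 11963 genes it names. Single-colour arrays had been run on 24 aorta samples, 6 for each combination of age and sex. Per the labels the young males averaged 6.6 years of age, the old males 20.0 years, the young females 7.2 years and the old females 21.2 years. No treatment is given for any group, and all groups were the same species and the same vessel. The labels do not say that replicates were separate animals, so a p-value here rests on the spread of these samples alone, which may be technical in part.

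Matricellular proteins are secreted into the extracellular matrix but are not, for the most part, load-bearing parts of it. They bind collagen, growth factors and cell-surface receptors such as integrins, and so tune adhesion, growth factor release and matrix assembly. In arteries they are known mainly from injury, mechanical load and remodelling, where smooth muscle cells, fibroblasts and endothelial cells make them. Fibronectin, encoded by FN1, is itself a fibril-forming adhesive glycoprotein and is grouped here with its binding partners.

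Before any comparison, 3 pairs of near-identical arrays (numbers 3 and 4 in both young groups, and 1 and 4 in old females) were each averaged and counted as 1 sample. That left 5 samples in each group but the old males, who kept 6, and 21 in all. The deposited values are linear intensities, and levels are given as log2(intensity + 16) after quantile normalisation, so a difference of 1 is a doubling for a bright probe set and somewhat less than the true change for a dim one. The probes were designed on human transcripts and met monkey RNA here, so a level describes 1 probe set across samples and is not set against the level of another. In bulk tissue, fewer cells of a type and less RNA per cell cannot be told apart. Smooth muscle markers were high in every group, with a mean over 9 tested markers between 11.5 and 14.1 in every sample; these are the main cells of the labelled tissue.

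Of the 21 samples, 6 stood apart from the other 15 and are called divergent here. They were samples 2 and 6 of the old females, 2 and 4 of the old males, 3 of the young females and 1 of the young males. Their median correlation with the other arrays was 0.81 to 0.828, against 0.879 to 0.935 in the rest, over all tested probe sets, members included. The divergent arrays also had a higher 3' to 5' ratio of the actin control (0.785 to 1.73 on the log2 scale, against -0.249 to 1.15) and brighter spiked-in hybridisation controls (12.8 to 14.3, against 11.2 to 12.1). Divergent samples made up 4 of 11 old and 2 of 10 young samples, so they weigh more on the old side of each comparison. The age results below are therefore given with and without them where the value moved much.

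All 9 genes had at least 1 probe set bright enough to be tested, and 15 of the 22 probe sets passed that filter, which asked for a mean at or above the median of all probe sets. The 7 below it were 4 of the 5 THBS1 probe sets and 1 each for TNC, POSTN and FN1. A filter on the mean over all samples does not look at age. In what follows a gene is represented by its brightest tested probe set unless another is named.

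No matricellular gene passed the test for age. With limma and Benjamini-Hochberg adjustment over all 11108 tested probe sets, 0 of the 15 member probe sets reached an adjusted p of 0.05 in males, in females or with both sexes averaged, and their adjusted p-values ran from 0.985 to 1. Few probe sets passed anywhere on the array: 0.018% in males, 0% in females and 0% with the sexes averaged. At an unadjusted p of 0.05, 0 of the 15 passed in males (background 3.36%), 0 in females (background 2.84%) and 2 with the sexes averaged (background 4.38%). Both of those were SPARC probe sets. Counted by gene the averaged figure was 1 of 9, against 4.7% of 6952 genes, and 0 of 9 in males (3.62%) and in females (2.88%). No tested member probe set had old and young ranges that lay apart in males (0.657% of all tested probe sets did) or in females (0.342%).

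The age effect of the members was not shown to differ between the sexes either. The test of that difference gave 0 of 15 calls after adjustment (0% over all probe sets) and 0 at an unadjusted p of 0.05 (1.97%).

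With all 21 samples more genes had a lower than a higher mean in old animals, and without the divergent samples that held in females alone. With all samples, in males 7 of 9 genes had a lower mean in old animals, against 51.8% of all genes, with a median log2 difference of -0.144 against -0.012. In females it was 5 of 9, against 53.5%, with a median of -0.249 against -0.022. With the sexes averaged it was 7 of 9, against 53.2%, with a median of -0.177 against -0.012. With the 15 others alone, the lower means were 2 of 9 in males, against 49.4% of all genes, with a median of 0.229. In females they were 5 of 9, against 51%, with a median of -0.143, and averaged 3 of 9, against 50.1%, with a median of 0.069. The direction of these small differences thus turned in males and with the sexes averaged, and the counts carry no test of their own.

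**Figure D1:**
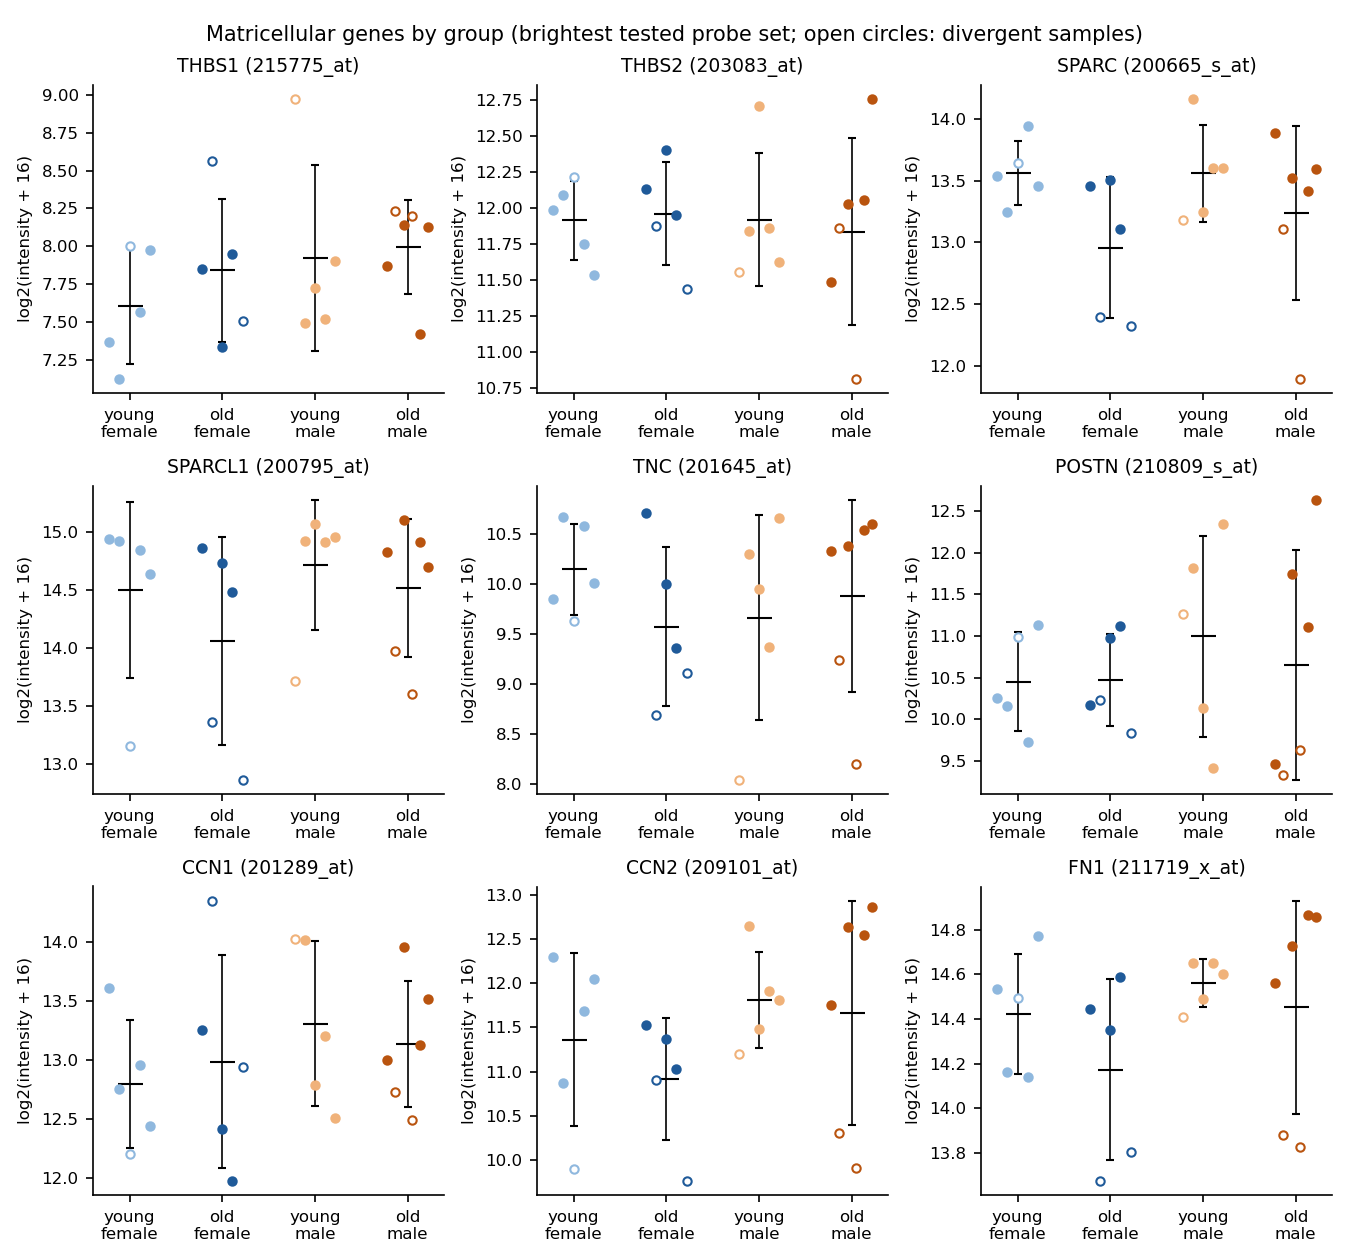
Level of each gene's brightest tested probe set, as log2(intensity + 16) after quantile normalisation (vertical axis), in young females, old females, young males and old males (horizontal axis). Points are samples, open circles are the 6 divergent samples, and the bars are the group mean and SD. Old and young points overlap in every panel, and in the SPARCL1 panel every open circle (at most 13.97) lies below every filled one (at least 14.49).

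SPARC encodes osteonectin, a collagen-binding glycoprotein that takes part in collagen fibril assembly, and it had the smallest p of the 9 genes. In young females its probe set 200665_s_at read 13.53, 13.24, 13.64, 13.94 and 13.45 (samples 1, 2, 3, 5 and 6). Old females 1, 2, 3, 5 and 6 read 13.46, 12.39, 13.51, 13.11 and 12.32. All 5 old females lay below the young female mean of 13.56 ± 0.26 (SD, n = 5), and 3 lay below the lowest young female, although the ranges met.

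Young males 1, 2, 3, 5 and 6 read 13.18, 14.16, 13.25, 13.61 and 13.60 for SPARC. The 6 old males ran from 11.90 to 13.88 with a median of 13.47. Only 4 of the 6 old males lay below the young male mean, and the lowest of them, old male 4, was a divergent sample. The limma difference, old minus young, was -0.60 ± 0.30 (SE) in females and -0.32 ± 0.29 in males, neither past an unadjusted p of 0.05. Averaged over the sexes it was -0.46 ± 0.21, or 0.725-fold, with an unadjusted p of 0.0394 and a limma adjusted p of 0.985.

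The second SPARC probe set, 212667_at, gave an averaged difference of -0.30 ± 0.14 (limma adjusted p = 0.985). All 6 old males and 4 of 5 old females lay below the mean of their young group on it. The 2 SPARC probe sets correlated at r = 0.51 over 21 samples, so they share part of their variation and not all of it. SPARC levels were lower in the divergent samples, with 11.90 to 13.64 against 13.11 to 14.16 in the rest on 200665_s_at. Without the divergent samples the averaged difference of 200665_s_at shrank to -0.12 ± 0.14 (limma adjusted p = 0.891, 15 samples), while that of 212667_at was -0.26 ± 0.13 (adjusted p = 0.729). The difference on the brighter probe set was thus much smaller without the divergent samples, and that on the other was nearly as large.

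SPARCL1 encodes hevin, the closest relative of osteonectin, which is anti-adhesive and abundant in blood vessels and brain. Young females read 14.94, 14.92, 13.15, 14.84 and 14.64, and old females 14.86, 13.36, 14.73, 14.49 and 12.86. Young males read 13.71, 14.92, 15.07, 14.91 and 14.96, and the old males ran from 13.60 to 15.11 with a median of 14.76. In every group 3 or 4 samples lay between 14.49 and 15.11 and the other 1 or 2, which were the divergent ones, lay at 13.97 or lower.

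The averaged age difference of SPARCL1 was -0.32 ± 0.28 (limma adjusted p = 0.985). The order of the group means was old female (14.06), young female (14.50), old male (14.52) and young male (14.72), with SDs of 0.56 to 0.89, so no neighbours in that order differed beyond their spread. The 6 divergent samples ran from 12.86 to 13.97 and the 15 others from 14.49 to 15.11, with no overlap. It was the only 1 of the 15 tested member probe sets with such a gap, which 3.9% of all tested probe sets showed. Leaving the divergent samples out cut the SD within groups from 0.709 to 0.145, a ratio of 4.88 that lay at the 99.9th percentile of all tested probe sets (median ratio 1.39). Because divergence was defined over the same arrays, this is a description and not a test. In the 15 others SPARCL1 had the smallest SD within groups of the 15 tested member probe sets, and its averaged age difference was -0.11 ± 0.08 (95% interval -0.28 to 0.05, limma).

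TNC encodes tenascin-C, a large anti-adhesive glycoprotein that adult arteries make mainly during remodelling. Young females read 9.85, 10.67, 9.63, 10.59 and 10.01, and old females 10.71, 8.70, 10.01, 9.36 and 9.12 on 201645_at. Young males read 8.05, 10.30, 9.95, 9.38 and 10.67, and the old males ran from 8.20 to 10.60 with a median of 10.36. The highest and the lowest females were both old, and the lowest sample of all was young male 1, a divergent sample.

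The TNC difference, old minus young, was -0.57 ± 0.49 in females and 0.22 ± 0.47 in males (limma adjusted p = 1 for both). Those signs differ, but the test of the difference between the sexes gave 0.79 ± 0.68 (limma adjusted p = 1). The 6 divergent samples ran from 8.05 to 9.63 and the others from 9.36 to 10.71, a mean difference of -1.40, against a median of -0.07 over all tested probe sets. Without them the averaged TNC difference was 0.07 in place of -0.18. The dimmer TNC probe set, 216005_at, lay below the filter and gave an averaged difference of -0.12 ± 0.21 (limma, no filter).

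FN1 was read by 6 probe sets, more than any other member. On the brightest of them, 211719_x_at, young females read 14.54, 14.16, 14.50, 14.14 and 14.77, and old females 14.44, 13.67, 14.35, 14.59 and 13.81. Young males read 14.41, 14.65, 14.49, 14.65 and 14.60, and old males ran from 13.83 to 14.87 with a median of 14.65. Of the 6 old males, 3 lay above every young male, 1 lay within their range and 2, both divergent, lay below it.

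The averaged FN1 difference was -0.18 ± 0.15 (limma adjusted p = 0.985), with -0.25 ± 0.21 in females and -0.11 ± 0.20 in males. Its 95% interval ran from -0.48 to 0.12, so a doubling and its reverse lay outside it for this probe set. Probe sets 210495_x_at, 212464_s_at and 216442_x_at tracked 211719_x_at closely, at r = 0.92 to 0.961 among the 4 over 21 samples, and had averaged differences of -0.11 to -0.14.

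Another tested FN1 probe set, 214701_s_at, stood apart from these. It correlated with the other 4 at only 0.561 to 0.595 over 21 samples. Over the 15 that were not divergent, with group means removed, this was 0.145 to 0.343, against 0.792 to 0.888 among those 4. Probe set 214701_s_at ran from 7.49 to 11.27, with an SD within groups at the 98.57th percentile of tested probe sets. Its averaged age difference was 0.14 ± 0.51 (limma). On 214701_s_at the old females alone read 10.52, 8.54, 7.49, 11.27 and 9.25, a range that contained every young female. The probe sequences were not used here, so which FN1 transcript each probe set reads is not stated. The dim sixth probe set, 214702_at, lay below the filter at a mean of 5.11.

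Without the divergent samples, 1 of the 15 member probe sets had an unadjusted p below 0.05 in males (background 5.94%), and it was FN1 210495_x_at with 0.36 ± 0.15 (limma adjusted p = 0.774). In females 0 of 15 did (5.16%), and 0 of 15 with the sexes averaged (6.94%). The 4 remaining old males averaged 14.89 ± 0.23 (SD, n = 4) on that probe set and the 4 remaining young males 14.53 ± 0.17 (n = 4), with overlapping ranges.

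**Figure D2:**
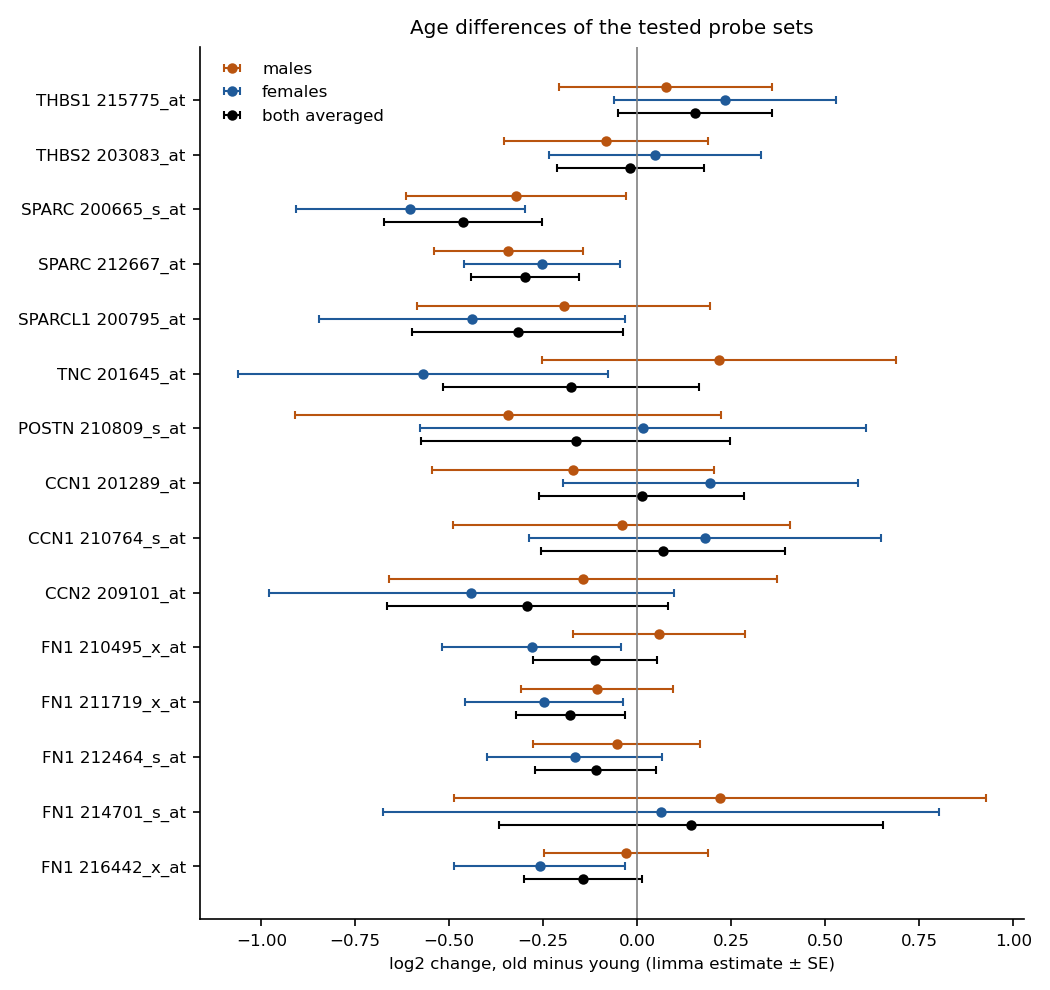
Age difference of the 15 tested member probe sets: log2 change, old minus young (horizontal axis), as the limma estimate with its standard error, for males (orange), females (blue) and both averaged (black). Both SPARC probe sets lie left of 0 in all 3 estimates, at -0.25 to -0.60, and most of the other bars span 0.

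CCN1 and CCN2 encode the secreted proteins once called CYR61 and CTGF, which bind integrins and heparan sulfate and are textbook targets of mechanical signalling through YAP. On CCN1 probe set 201289_at young females read 13.61, 12.75, 12.20, 12.96 and 12.44, and old females 13.25, 14.35, 12.41, 11.97 and 12.94. Young males read 14.03, 14.02, 12.78, 13.20 and 12.50, and old males ran from 12.49 to 13.96 with a median of 13.06. Both the highest and the lowest CCN1 level of all samples came from old females. The averaged difference was 0.01 ± 0.27 (limma), and the second CCN1 probe set, 210764_s_at, gave 0.07 ± 0.32. The pair correlated at 0.835 over 21 samples.

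On CCN2 probe set 209101_at young females read 12.30, 10.88, 9.90, 11.68 and 12.04, and old females 11.53, 10.90, 11.37, 11.03 and 9.76. Young males read 11.20, 12.65, 11.48, 11.91 and 11.81, and old males ran from 9.91 to 12.86 with a median of 12.14. The 2 lowest old males were the divergent ones and the other 4 read 11.75 to 12.86. The CCN2 difference was -0.14 ± 0.52 in males, -0.44 ± 0.54 in females and -0.29 ± 0.37 averaged (limma). CCN2 was 1.56 lower on the log2 scale in the divergent samples than in the others, and without them the male difference became 0.48 ± 0.31 (limma adjusted p = 0.968) and the female one stayed at -0.42 ± 0.33.

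POSTN encodes periostin, a matrix protein of fibroblasts and injured vessel wall that binds integrins and collagen. It varied most among the brightest probe sets of the 9 genes, with an SD within groups of 1.03, at the 95.8th percentile of tested probe sets. On 210809_s_at young females read 10.25, 10.16, 10.99, 9.73 and 11.13, and old females 10.17, 10.23, 10.98, 11.12 and 9.84. Young males ranged wider, at 11.27, 11.82, 10.13, 9.41 and 12.35, and so did old males, from 9.33 to 12.64 with a median of 10.37. The spread was as large without the divergent samples (SD 1.07), unlike that of SPARCL1, TNC or CCN2. The difference was -0.34 ± 0.57 in males, 0.02 ± 0.59 in females and -0.16 ± 0.41 averaged (limma). The averaged 95% interval ran from -1.02 to 0.69, wider than that of any other gene's brightest probe set. The second POSTN probe set, 214981_at, was dim at a mean of 4.63 and correlated with the first at -0.279.

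THBS2 encodes thrombospondin-2, which limits matrix metalloproteinase activity and blood vessel growth. On 203083_at young females read 11.99, 12.09, 12.22, 11.75 and 11.53, and old females 12.13, 11.88, 12.41, 11.96 and 11.44. Young males read 11.56, 11.84, 12.71, 11.86 and 11.62, and old males ran from 10.82 to 12.76 with a median of 11.95. All 4 group means lay between 11.84 and 11.96. The averaged difference was -0.02 ± 0.20 (95% interval -0.42 to 0.39, limma).

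**Figure D3:**
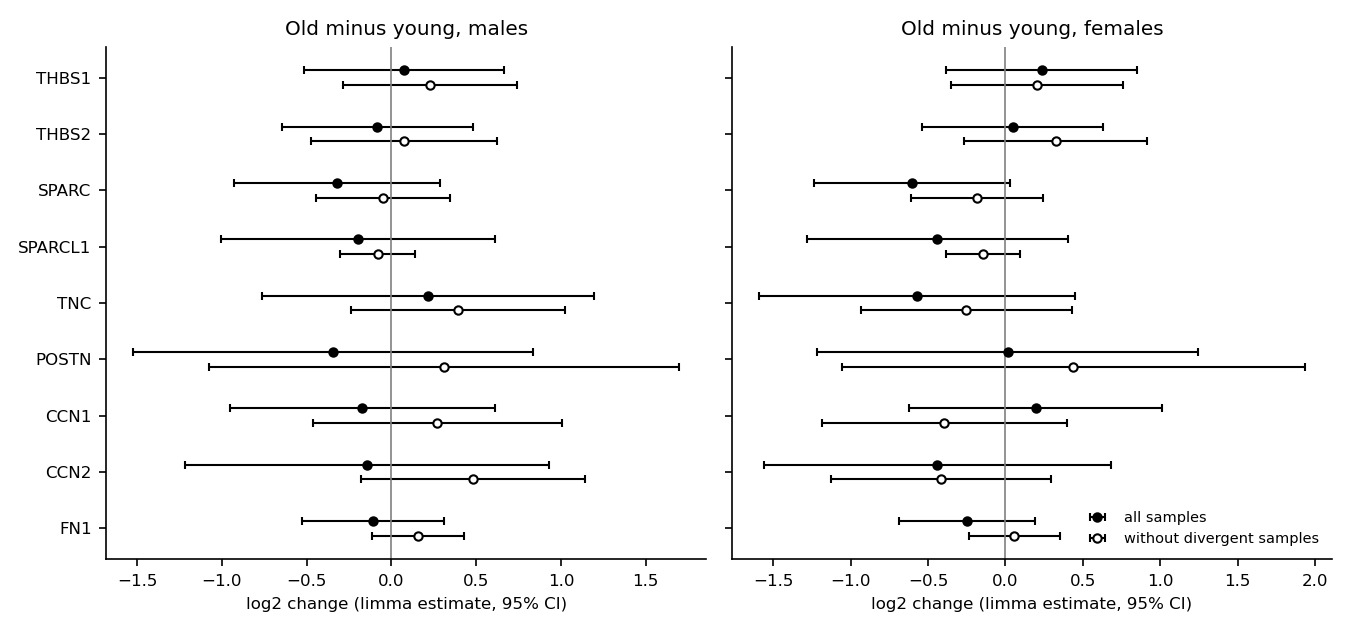
Age difference of each gene's brightest tested probe set in males (left) and females (right), as log2 change, old minus young, with its 95% interval from limma (horizontal axis), for all 21 samples (filled) and without the 6 divergent samples (open). The CCN2 estimate in males moves from -0.14 to 0.48, and the interval of SPARCL1 narrows most.

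THBS1 encodes thrombospondin-1, which binds CD36, CD47 and integrins, activates latent TGF beta and is carried in large amounts by platelets. It was the hardest member to read, because only 1 of its 5 probe sets was tested. On that one, 215775_at, young females read 7.37, 7.13, 8.0, 7.57 and 7.97, and old females 7.85, 8.56, 7.34, 7.95 and 7.51. Young males read 8.97, 7.49, 7.73, 7.52 and 7.90, and old males ran from 7.42 to 8.23 with a median of 8.13. The averaged difference was 0.15 ± 0.20 (limma adjusted p = 0.987).

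Probe set 201108_s_at lay just below the filter, at a mean of 7.32, and was read in the fit without a filter. Young males gave 7.20, 6.50, 7.52, 6.92 and 6.64. The 6 old males ran from 7.14 to 8.75 with a median of 7.99, and 5 of the 6 lay above every young male. Young females gave 7.71, 7.62, 7.82, 7.54 and 6.28, and old females 7.33, 5.96, 8.43, 7.48 and 5.03, so the females showed no such separation and the 2 lowest old females were divergent.

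The 201108_s_at difference was 1.01 ± 0.47 in males (limma adjusted p = 1) and -0.55 ± 0.49 in females. It was the 1 of 22 member probe sets with an unadjusted p below 0.05 in males without a filter, where 3.93% of all probe sets had one. The difference between the sexes was 1.55 ± 0.68 (limma adjusted p = 1).

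Without the divergent samples the male difference of 201108_s_at was 1.35 ± 0.37 (limma adjusted p = 0.524, 4 against 4 samples) and the female one turned to 0.46 ± 0.40. Another dim probe set, 201109_s_at, then gave 1.75 ± 0.49 in males (limma adjusted p = 0.552), with old males at 6.87, 6.72, 6.46 and 5.90 and young males at 4.94, 4.86, 4.55 and 4.59. These were the 2 of 22 member probe sets whose old and young males lay apart in that setting, where 4.48% of all probe sets did. Young male 1, a divergent sample, had read 7.35 on 201109_s_at, above every other sample except old female 3, and with all samples the male difference on it was 0.68 ± 0.56. Averaged over the sexes, 4 of the 22 member probe sets then had an unadjusted p below 0.05, against 6.41% of all probe sets. They were THBS1 201109_s_at (1.31 ± 0.36), THBS1 201108_s_at (0.91 ± 0.27), THBS1 201107_s_at (0.38 ± 0.16) and SPARC 212667_at (-0.26 ± 0.12), with limma adjusted p-values of 0.506 to 0.772. The setting without a filter and without the divergent samples was chosen after the values had been seen.

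All 5 THBS1 probe sets had a higher averaged mean in old animals, with all samples and without the divergent ones, but they varied differently from sample to sample. Over 21 samples 201108_s_at correlated with the tested 215775_at at r = -0.141, and over the 15 others, with group means removed, at -0.683. The 4 dim probe sets correlated with one another at -0.168 to 0.37 over 21 samples, and the highest of these, 201109_s_at with 201110_s_at, was 0.544 in the 15 others. Their levels were low, with 201107_s_at at 4.59 to 5.54 in every sample, where the pseudocount of 16 holds down any change. Platelet markers, a possible source of THBS1 RNA, were tested for 3 of 8 genes and had a mean of 7.78 to 8.37 in old males and 7.37 to 8.72 in young males. Their part in the THBS1 values was not tested.

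**Figure D4:**
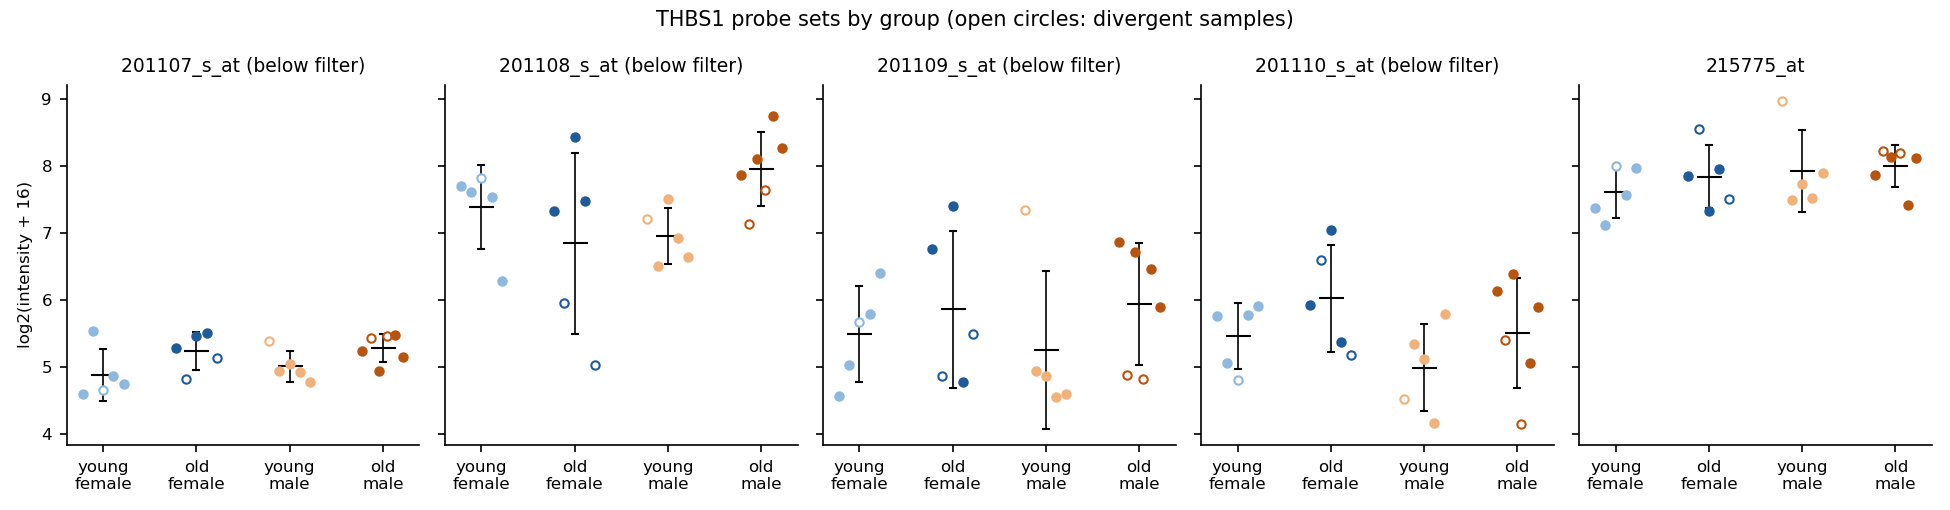
Level of the 5 THBS1 probe sets, as log2(intensity + 16) (vertical axis), by group (horizontal axis), with group mean and SD bars and open circles for the 6 divergent samples. On 201108_s_at 5 of 6 old males lie above every young male, while on the tested 215775_at old and young males overlap.

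Sex was compared as well. In young animals 7 of 9 genes had a higher mean in males, against 49.2% of all genes, with a median of 0.217. In old animals it was 8 of 9, against 52.2%, with a median of 0.279. None of the 15 tested probe sets passed after adjustment in young (0.027% of all did) or old animals (0.027%), and 0 did at an unadjusted p of 0.05 in young (1.39%) or old animals (4.09%) with limma. The largest estimates were 0.75 for CCN2 in old animals and 0.62 for the CCN1 probe set 210764_s_at in young animals.

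Without the divergent samples, 4 of the 15 had an unadjusted p below 0.05 between old males and old females, against 4.65% of all probe sets. CCN2 was 1.13 ± 0.33 higher in old males (limma adjusted p = 0.956), at 12.44 ± 0.48 (SD, n = 4) against 11.31 ± 0.25 (SD, n = 3). The 4 old males read 11.75 to 12.86 and the 3 old females 11.03 to 11.53, and this was the 1 of 15 member probe sets whose ranges lay apart (4.41% of all tested probe sets). CCN1 was 1.27 ± 0.47 higher on 210764_s_at and 0.85 ± 0.37 higher on 201289_at, and FN1 210495_x_at 0.48 ± 0.17 higher, all with a limma adjusted p of 0.956. Of these 4 probe sets, 2 read the same gene. In young animals the same setting gave 0.24 ± 0.31 for CCN2. In these 7 samples the adipocyte markers had means of 7.85 to 10.9 in old females and 8.1 to 10.9 in old males, and the smooth muscle markers 12.8 to 13.8 in old females and 13.3 to 14.1 in old males. Old females 3 and 5 had the lowest median array correlations of the 15, at 0.881 and 0.879, against 0.915 in the next. Their smooth muscle marker means were 12.84 and 12.76, and that of old female 1 was 13.83. Old female 3 also had a log2 actin 3' to 5' ratio of 1.15, within the range of the divergent samples. The part of these markers and array measures in the differences was not tested.

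How the members varied together was examined in the 15 samples that did not stand apart, with the group means removed. Over the 36 pairs of genes, 0 passed a permutation test after Benjamini-Hochberg adjustment. CCN1 and CCN2 had the highest correlation, with Pearson's r = 0.641 (permutation p = 0.0106, adjusted p = 0.271) and a Spearman coefficient of 0.657 (permutation p = 0.00966, adjusted p = 0.348). It was 0.529 without the 2 samples farthest from the median of CCN1. CCN2 and FN1 followed with r = 0.614 (permutation p = 0.015, adjusted p = 0.271) and a Spearman coefficient of 0.563 (permutation p = 0.0311, adjusted p = 0.391), and r was 0.398 without 2 samples. CCN1 and FN1 had r = 0.00211, so the pair without CCN2 showed no such relation. SPARC and SPARCL1, the related pair, had r = -0.0687, and THBS1 and THBS2 had r = -0.171.

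**Figure D5:**
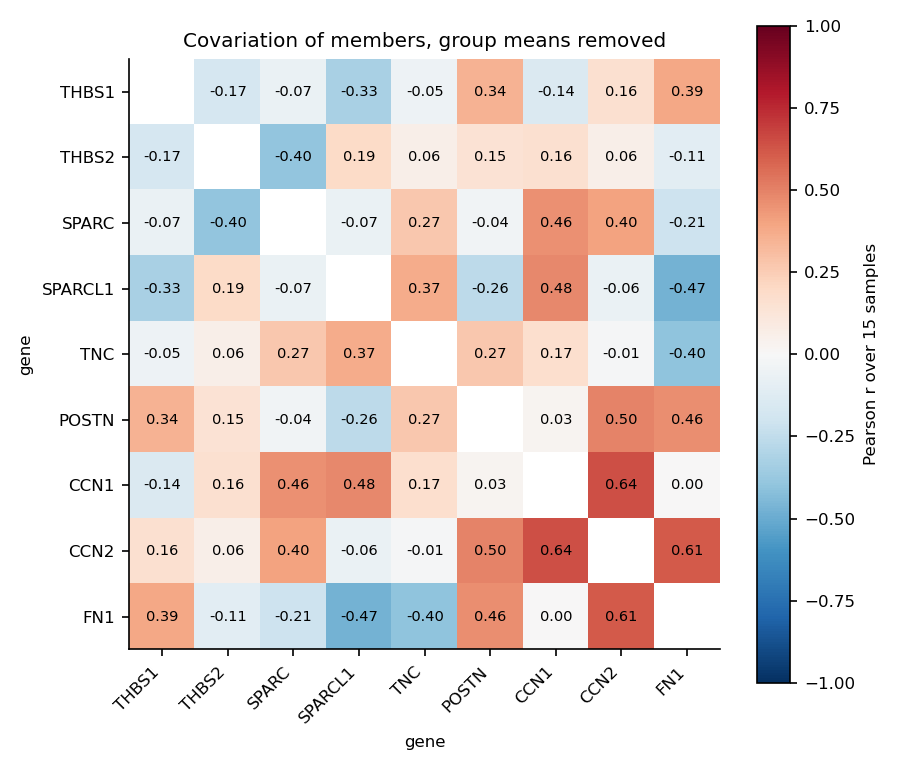
Pearson correlation between the 9 genes (both axes) over the 15 samples that did not stand apart, with group means removed and the value printed in each cell (red positive, blue negative). CCN2 with CCN1 (0.64) and with FN1 (0.61) are the largest, and no pair passed the adjusted permutation test.

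The genes most like each member were sought among 6943 others in the same 15 samples, with group means removed. These are the highest of many correlations over few samples, so they are large by selection and are given with no test. SPARC was most like PPP3CC (r = 0.872) and THOC2 (0.83), and SPARCL1 was most like STK16 (0.872), SYNC (0.865) and MYOZ2 (0.854). POSTN had PXDN, a peroxidase that cross-links collagen IV, at 0.914, RABEP2 at 0.894 and GDF7 at 0.887. For CCN2 they were NCAM1 (0.855), CSNK2A2 (0.83) and HPS5 (0.812), and for CCN1 they were STRN (0.825), BDNF (0.81) and PPP2CB (0.806). THBS2 was most like TEAD4 (0.837), SPRY2 (0.822) and KRT18 (0.821), and THBS1 was most like EPB41L4B (0.905), MEIS2 (0.839) and RAB3GAP1 (0.82). TNC had the weakest best matches, with MNAT1 at 0.76, LAX1 at 0.752 and KIF3B at 0.739. FN1 on 211719_x_at was most like R3HDM2 (0.796), SCNN1A (0.794) and DNAJC1 (0.792), while the outlying 214701_s_at was most like VCL (0.923), DDOST (0.911) and MAGED2 (0.909), a set with no name in common with the first.

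Around the members, the pathway lists described here gave 0 adjusted calls in any of the 3 age comparisons with limma. Their medians are to be read against those of all genes (-0.012 averaged) and their unadjusted counts against 4.7% of genes. Among 15 tested matricellular relatives, 9 had a higher averaged mean in old animals, with a median log2 difference of 0.11. SPP1, which encodes osteopontin, differed by 2.25 ± 0.81 in females, CCN5 by 1.73 ± 0.70 in males and FSTL1 by -0.59 ± 0.26 averaged, all with limma adjusted p-values of 0.985 to 1. With the sexes averaged 1 relative had an unadjusted p below 0.05 on each side. In the 15 samples that did not stand apart, 11 of 15 were higher, with a median of 0.16, and FSTL1 differed by -0.18 ± 0.11 (limma adjusted p = 0.771).

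Receptors of these proteins lay mostly lower in old animals, with 13 of 19 lower on average and a median of -0.08. Integrin subunits led the list: ITGB1 by -0.23 ± 0.08, ITGAV by -0.38 ± 0.15 and ITGA9, a tenascin-C receptor, by -0.54 ± 0.23, each with a limma adjusted p of 0.985. They were the 3 of 19 receptors with an unadjusted p below 0.05, all lower. When the divergent samples were left out, 9 of 18 receptors were lower, with a median of -0.002. Averaged, ITGB1 then differed by -0.12 ± 0.07, ITGAV by -0.29 ± 0.14 and ITGA9 by -0.67 ± 0.24 (limma adjusted p = 0.758, 0.719 and 0.61). In that setting 2 of the 18 had an unadjusted p below 0.05, both lower, against 6.94% of all tested probe sets.

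In the TGF beta axis, 10 of 16 genes were lower on average, with a median of -0.06. TGFB2, a TGF beta ligand, differed by -0.80 ± 0.25 averaged (limma adjusted p = 0.985). ENG, a co-receptor of endothelial cells, differed by 0.68 ± 0.24 in males and -0.47 ± 0.25 in females, and TGFB3 by 0.51 ± 0.20 in females (limma adjusted p = 1 for both). Leaving out the divergent samples gave 6 of 16 lower averaged, with a median of 0.054, while TGFB2 still differed by -0.81 ± 0.26 (limma adjusted p = 0.504). At an unadjusted p of 0.05, 2 of the 16 were then higher and 4 lower in males (background 5.94%), and 0 passed in females (5.16%). ENG differed by 0.76 ± 0.27 in males and -0.55 ± 0.29 in females. TGFB3 differed by -0.44 ± 0.18 in males and 0.35 ± 0.19 in females, with limma adjusted p-values of 0.704 to 0.911 for both genes.

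Immediate early genes, which like CCN1 respond within minutes to injury and handling, had a higher mean in old animals for 13 of 16 members in each sex, with medians of 0.38 in males and 0.37 in females. JUNB differed by 0.77 ± 0.27 averaged, KLF2 by 0.70 ± 0.29 in males and ATF3 by -1.30 ± 0.47 in males, with limma adjusted p-values of 0.985 to 1. Among the 15 other samples 13 of 16 were higher in old males (median 0.224), but 6 of 16 in old females (median -0.045). The averaged difference of CCN1, 0.01 with all samples, had a 95% interval from -0.55 to 0.58 (limma), which holds the medians of that list.

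The fibronectin and collagen matrix list held collagens, elastic fibre genes, small proteoglycans and the enzymes that process and cross-link collagen. Of 16 genes, 15 had a lower averaged mean in old animals, with a median of -0.55, and 6 had an unadjusted p below 0.05. COL1A2 differed by -0.69 ± 0.16 averaged (limma adjusted p = 0.673), COL3A1 by -0.71 ± 0.23 and COL1A1 by -0.78 ± 0.28 (adjusted p = 0.985 for both). The 15 other samples gave 14 of 16 lower averaged, with a median of -0.219 and 1 unadjusted p below 0.05, that of COL1A2 at -0.44 ± 0.17 (limma adjusted p = 0.627). By sex, 13 of 16 were lower in old males and 11 of 16 in old females. COL1A2 differed by -0.85 ± 0.23 in males and -0.04 ± 0.24 in females. COL1A1 differed by -1.07 ± 0.43 and 0.07 ± 0.47, and COL3A1 by -0.74 ± 0.37 and -0.29 ± 0.40. An unadjusted p below 0.05 was found for 2 of 16 in males (background 5.94%) and 0 in females (5.16%). With all samples SPARC, which binds these collagens, was the one member with 2 probe sets lower in old animals at an unadjusted p below 0.05. Without the divergent samples, and with the filter kept, neither had such a p, at -0.12 ± 0.14 and -0.26 ± 0.13 averaged. FN1, on whose fibrils collagen is deposited, had an averaged difference of -0.18 ± 0.15 with all samples and 0.11 without the divergent ones. The matrix list was chosen with earlier results of these data known and is no independent evidence of its direction.

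Markers of other cell types give the setting of these values. All 6 tested adipocyte markers were higher on average in old than in young males, with a median log2 difference of 1.78 in males and 0.10 in females, and their mean ran from 9.36 to 12.2 in the divergent samples and from 7.38 to 11.1 in the others. In the 15 others 5 of these markers were tested, all higher in old males (median 1.81) and all lower in old females (median -0.66). With the adipocyte mean as a covariate the male SPARC difference was 0.06 in place of -0.32, and that of CCN2 0.44 in place of -0.14. Of the 3 tested chondrocyte markers, ACAN, which encodes the cartilage proteoglycan aggrecan, was the 1 that passed in males, with 3.10 ± 0.51 (limma adjusted p = 0.0474). That call lay close to the threshold: it held in 9 of 13 other settings and in 3 of 21 with 1 sample left out, with adjusted p-values from 0.00034 to 0.195. Its difference was 2.74 to 3.51 throughout, and no member had one of that size.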

How the data were processed

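RNA from the thoracic aorta of 24 cynomolgus macaque samples had been read on single-colour arrays. The authors deposited 1 linear intensity for each probe set and array, with medians of 144.2 to 264.1 per array. Their summary of probes and scaling of arrays are not given in the sources used here. Per the labels' protocols, RNA was extracted with phenol and chloroform and labelled with biotin. Groups came from the sample titles, and gene names from the platform annotation.

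Intensities were converted to log2(intensity + 16) and quantile normalised. The 62 control probe sets were left out. Probe sets with a mean at or above the median of means were tested (11108 of 22215), and dim ones were read in a fit without a filter. Arrays whose deviations from the others correlated above 0.7 were averaged within a group. A mean per group was fitted with limma 3.58.1 (R 4.3.3, empirical Bayes with an intensity trend), with Benjamini-Hochberg adjustment within each of 6 contrasts and a threshold of 0.05. ± gives the standard error of a difference unless SD is written. On simulated data for old against young males (11108 probe sets, 100 changed by each amount), 46% of log2 changes of 1 and 90% of changes of 2 were recovered, with 15 false calls. The simulated noise was normal and independent, with no samples that stood apart, so these shares need not hold for the real arrays. Correlations between members used 100000 permutations. Precision is limited by how many arrays there are.

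The members, the gene lists and the limit of 0.85 on the median correlation that defines divergent samples were chosen with earlier results of these data known. All members are named; those described in full are the 4 genes with the smallest p in an age contrast, and others are added where a result turns on them, chosen after their values were seen. For each list, up to 3 genes with the smallest p are named, and for each member the 3 genes most like it; 1 such gene and 1 list are not reported here. Alternatives covered the counting of arrays, normalisation, filter, pseudocount, divergent samples, actin ratio, adipocyte and smooth muscle marker means, array weights, a replicate block and leaving out each sample. No set test was run, and sequences were not used here.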

Additional observations from a re-analysis of the deposited data

Results flagged for a closer look

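In 60 sets of values (each tested member probe set in each group), the highest or lowest sample was compared with the rest of its group by Dixon's test, which picks out about 1 group in 20 by chance. It picked out 4, of which 3 were divergent samples. SPARCL1 stood low in young female 3, at 13.15 against 14.64 to 14.94 in the other young females. SPARCL1 also stood low in young male 1, at 13.71 against 14.91 to 15.07 in the other young males. THBS1 on 215775_at stood high in the same young male 1, at 8.97 against 7.49 to 7.9. THBS2 stood high in young male 3, which is the mean of a near-identical pair and not divergent, at 12.71 against 11.56 to 11.86.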

How the results depend on the processing

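Under every alternative tried, 0 of the tested member probe sets passed the adjusted threshold in any of the 6 comparisons, with limma. Under the alternatives, age differences and their p-values were followed for each gene's brightest tested probe set, the second SPARC probe set and THBS1 201108_s_at. Among these the lowest adjusted p in an age comparison was 0.0591, for THBS1 201108_s_at in males with array weights, where its difference was 1.384. The other member probe sets, including the other dim THBS1 ones, were not followed in this way. SPARC kept a lower averaged level in old animals in all settings on both probe sets, from -0.613 to -0.118 on 200665_s_at, and its unadjusted p ran from 0.0285 to 0.4 over settings that left out no single sample. Of 426 log2 differences of the probe sets followed, recomputed in settings that left out no single sample, 51 changed sign, none past the adjusted threshold on either side. Of 462 with 1 sample left out, 36 changed sign. For 12 of the 33 differences followed, the sign never changed. The cause of these turns was not tested.

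Without the divergent samples the difference became 0.075 (THBS2), 0.312 (POSTN), 0.271 (CCN1), 0.481 (CCN2) and 0.155 (FN1) in males, -0.394 (CCN1), 0.058 (FN1) and 0.46 (THBS1 201108_s_at) in females, and 0.2 (THBS2), 0.069 (TNC), 0.375 (POSTN), -0.061 (CCN1), 0.033 (CCN2) and 0.106 (FN1) averaged. With divergence as a covariate it was 0.061 for CCN2 in males and, averaged, 0.049 (THBS2), 0.057 (TNC) and -0.004 (CCN1). With the adipocyte mean as a covariate the male values were -0.149 (THBS1), 0.111 (THBS2), 0.063 (SPARC), 0.288 (SPARCL1), 0.038 (POSTN), 0.44 (CCN2) and 0.088 (FN1), and the averaged ones 0.084 (THBS2), 0.217 (TNC), 0.037 (POSTN) and 0.014 (CCN2). Array weights gave 0.084 (THBS2), 0.161 (POSTN), 0.081 (CCN1), 0.31 (CCN2) and 0.105 (FN1) in males, -0.066 (CCN1) in females, and 0.134 (THBS2), 0.036 (TNC) and 0.177 (POSTN) averaged.

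Centring arrays on their median gave -0.073 (THBS2) and -0.042 (POSTN) in females and -0.125 for CCN1 averaged, and no further normalisation gave -0.065 for CCN1 averaged. Counting all 24 arrays gave -0.124 and the smooth muscle mean as a covariate -0.089 for POSTN in females, where CCN2 became 0.006 with that covariate. The actin ratio as a covariate gave -0.021 for TNC in males and -0.005 for CCN1 averaged. Between members, 3 pairs passed the correlation test after median centring and 1 with all samples and a further mean for divergence, against 0.

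With the replicate number as a block (replicate block), 0 member probe sets passed in each comparison, and the difference became 0.121 (THBS2), 0.207 (CCN2) and 0.019 (FN1) in males and 0.084 (THBS2) averaged. After averaging, old male 4 is the only sample numbered 4, so the block sets it aside, and these values equal those without old male 4. Samples of different groups with the same number correlated in their deviations at -0.425 to 0.509 (median 0.0652, 30 pairs). For different numbers the median was -0.00301. Whether samples with the same number share more than that number was not tested.

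With 1 sample left out, the differences that changed sign ran as follows. In males they were -0.032 to 0.338 (THBS1), -0.268 to 0.121 (THBS2), -0.189 to 0.553 (TNC), -0.372 to 0.009 (CCN1), -0.382 to 0.207 (CCN2) and -0.189 to 0.019 (FN1). In females they were -0.065 to 0.177 (THBS2), -0.165 to 0.185 (POSTN) and -0.147 to 0.447 (CCN1). Averaged, they were -0.111 to 0.084 (THBS2), -0.363 to 0.006 (POSTN) and -0.159 to 0.138 (CCN1). Leaving out old male 4 moved the male SPARC difference to -0.055. Low signal limits the reading most for the dim THBS1 probe sets.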
